A study of Mus musculus with 37 samples.

Results

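Hippocampal astrocytes on the side opposite a traumatic brain injury were compared between mice that did not develop post-traumatic epilepsy (PTE-) and sham mice. All libraries labelled contralateral PTE- (n = 10) or contralateral sham (n = 5) were taken, 15 of the 37 libraries of the series, each from 1 mouse. The injury was a severe controlled cortical impact on 1 side of the parietal cortex of adult male mice. The sham mice had the craniectomy and the recording electrodes but no impact, so that these 2 procedures were common to both groups. The sample labels enter the strain as CD31, whereas the study's methods name CD1 mice. Video and electroencephalography recordings sorted the injured mice, and those that did not meet the study's seizure criterion for epilepsy were PTE-. At 4 months after surgery, cells of the uninjured-side hippocampus were captured with ACSA-2 magnetic beads, which bind an astrocyte surface protein, and RNA was read by SMART-Seq V4, a method that amplifies cDNA from few cells and does not keep the strand.

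Astrocytes clear glutamate and potassium from around synapses, supply neurons with glutamine and lactate, and couple to each other through gap junctions. After injury they can become reactive, a state marked by the intermediate filament genes Gfap and Vim and by complement and acute-phase genes. The hippocampus opposite a focal impact receives no direct blow but remains linked to the injured side by commissural fibres, so that a difference there would be a remote one.

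Libraries held between 25371887 and 55333329 counts in PTE- and between 32949191 and 50801017 in sham, and from 11756 to 15315 and from 12122 to 15321 genes were detected. Neither depth (exact permutation test, 2-sided, p = 0.898) nor the number of detected genes (exact permutation test, 2-sided, p = 0.355) differed beyond the spread. The fewest genes were detected in PTE- libraries a9_20 and a9_14 and in sham library a8_16. The labels describe no shared culture or batch. The a8 and a9 prefixes of the mouse names are not explained, and each group holds mice of both. Astrocyte markers carried the preparation in every library: the summed level of 20 astrocyte identity genes, in transcripts per 1000000 (TPM, a level per transcript length), ranged from 25500 to 38110 in PTE- and from 29700 to 40630 in sham.

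No gene passed the test once p was adjusted over all genes. Of 14642 genes tested with edgeR's quasi-likelihood test, 0 (0%) had a Benjamini-Hochberg adjusted p under 0.05, and the smallest adjusted p was 0.279. DESeq2 on the same counts called 26 genes at that limit. Among them were Sema3f, Lhx6 and the predicted genes Gm10800, Gm10801, Gm10718, Gm21738 and Gm10719, which are described below. At an unadjusted p under 0.05 there were 226 genes (1.54% of those tested), 119 higher (0.813%) and 107 lower (0.731%) in PTE-. Evenly spread p-values would put a share of 0.05 of the genes under that limit, so that 226 is no excess. The study's own criteria, an unadjusted p under 0.05, a fold of at least 1.2 and a mean above 5 TPM in either group, left 110 genes (0.751%), 71 higher (0.485%) and 39 lower (0.266%), all protein coding. Unadjusted p-values are quoted from here on, and the edgeR adjusted p of every gene is 1 unless it is given.

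The direction of that set depended on the scale. The share of higher genes was 64.5% with edgeR, 74.8% of 242 genes with DESeq2, 35.5% of 330 with limma voom and sample quality weights, 13.4% of 463 with limma on log2(TPM + 1), and 53.9% of 128 when the fit carried each library's count of detected genes. The median log2 fold change over all genes was 0.07 with edgeR, -0.1 with voom and -0.22 on log2(TPM + 1). The voom and TPM scales thus shifted the whole distribution by more than 0.1. The edgeR values below are given as fitted. The edgeR median of 0.07 was not subtracted from them and is to be read beside them.

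**Figure D1:**
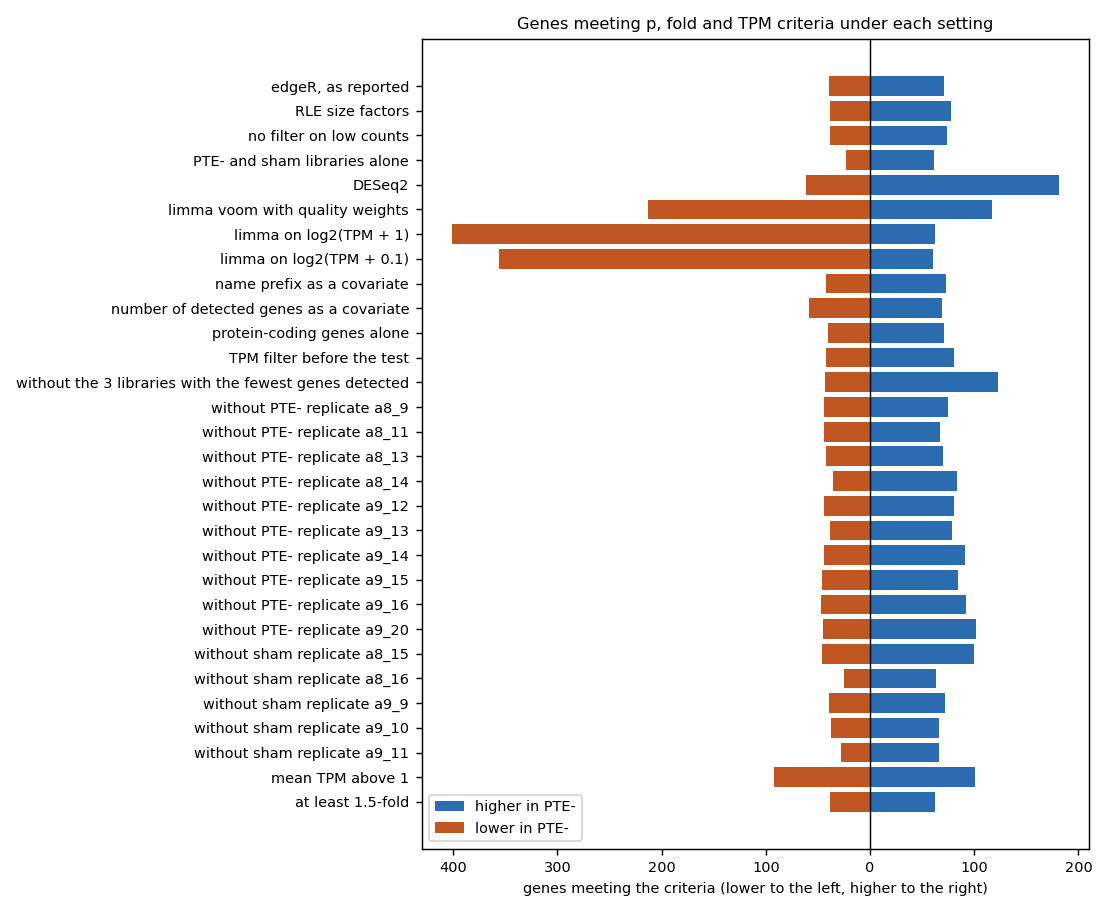
Number of genes meeting the p, fold and TPM criteria (horizontal axis) under each setting (rows), with genes higher in PTE- to the right of 0 and genes lower to the left. The edgeR fit gave 71 higher and 39 lower, DESeq2 gave 181 and 61, and limma on log2(TPM + 1) gave 62 and 401.

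Leaving out 1 library at a time gave between 88 and 147 genes, and without sham library a8_16 the 88 genes held 52 of the 110. Without the 3 libraries with the fewest genes, a setting chosen after seeing the data, 166 genes met the criteria, 48 of them among the 110. The libraries of the 2 groups did not overlap in level for 4 genes (0.0273% of those tested), all 4 lower in PTE-, and for 0 genes in the higher direction.

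The genes below were named by rule, as the 10 smallest p-values in each direction among genes that met the criteria and had more than 3 counts in every library. Levels are counts per 1000000 (CPM) scaled by TMM, PTE- values are given as the lowest, the median and the highest of 10 libraries, and sham values as all 5. For these and other named genes, 41 in all, the exact permutation test compared mean log2(CPM + 1) over all assignments of the 15 libraries to groups of 10 and 5, 2-sided. Its smallest possible p is 0.000333. Where a gene was named for its small edgeR p, this test reuses the libraries that chose it, so that its p describes those libraries and is not independent support.

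Ptgds, which encodes the lipocalin-type prostaglandin D synthase, had the smallest p among the higher genes. It lies on chromosome 2, from 25466709 to 25470046 (GRCm38, minus strand). In PTE- its level was 155, 876 and 2203 CPM, and in sham it was 129, 171, 281, 177 and 631 CPM. The 4 highest PTE- libraries, a9_20, a8_11, a8_9 and a8_13, stood above 1700 CPM, while 4 PTE- libraries, the lowest of them a8_14, lay within the sham range. edgeR put the log2 fold change at 1.98 ± 0.61 (SE, p = 0.00361, edgeR), and the exact permutation p was 0.0216. Ptgds is also strongly expressed by meningeal, choroid plexus and oligodendrocyte cells. The mural and fibroblast markers summed to 616 to 3452 TPM in PTE- and 1480 to 2821 TPM in sham. Oligodendrocyte markers summed to 312 to 1282 TPM in PTE- and 322 to 1723 TPM in sham. Ependymal and choroid plexus markers summed to 428 to 2897 TPM in PTE- and 485 to 1918 TPM in sham. The part of these cells in the Ptgds difference was not tested. On the injured side Ptgds was also higher in PTE- than sham, by 2.3 on the log2 scale (p = 0.00669, edgeR).

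Mgll, monoacylglycerol lipase, breaks down the endocannabinoid 2-arachidonoylglycerol. Its level was 557, 754 and 908 CPM in PTE- and 626, 407, 535, 673 and 472 CPM in sham. The difference was 0.49 ± 0.16 on the log2 scale (SE, p = 0.00585, edgeR), with an exact permutation p of 0.00433. It was 0.58 within a8 mice and 0.43 within a9 mice, and p stayed under 0.05 whichever single library was left out. Mgll spans 88724412 to 88828360 of chromosome 6.

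Stard3, an endosomal cholesterol-transfer protein, measured 32.8, 73.4 and 156 CPM in PTE- against 46.3, 31.6, 45.3, 48.2 and 41 CPM in sham. All but 1 of the PTE- libraries, a9_20, lay above every sham library. The log2 fold change was 0.95 ± 0.32 (SE, p = 0.00743, edgeR), and the exact permutation p was 0.0103.

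Vps35l, a subunit of the retriever complex that recycles membrane proteins from endosomes, measured 125, 150 and 234 CPM in PTE- and 96.9, 90.2, 77.8, 94.7 and 161 CPM in sham. Only the highest sham library, a9_11, reached the PTE- range. edgeR put the log2 fold change at 0.67 ± 0.23 (SE, p = 0.0079, edgeR), with an exact permutation p of 0.005. Its exons overlap 745 bases of Knop1 on the other strand, and the source of reads in that stretch is uncertain. Of its 31-base words, 4.94% also occur in Knop1.

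The overlap is a larger part of 1110051M20Rik, which shares 1380 exonic bases and 24.9% of its words with Arfgap2. Mak16, a ribosome biogenesis factor, shares 882 exonic bases and 33.8% of its words with Tti2. For both, the source of reads in the shared part is uncertain. For 1110051M20Rik the log2 fold change was 1.11 ± 0.39 (SE, p = 0.00871, edgeR) and the exact permutation p was 0.0539, while without the 3 libraries with the fewest genes the value was 0.77 (p = 0.0599, edgeR). Mak16 differed by 1.88 ± 0.66 (SE, p = 0.00919, edgeR), with an exact permutation p of 0.0266. Its sham libraries lay between 6.6 and 8.7 CPM, whereas PTE- ran from 7.32 to 56.5 CPM. In PTE-, 4 libraries stood with the sham libraries, below 10 CPM, and 6 stood at 21.2 CPM or above.

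**Figure D2:**
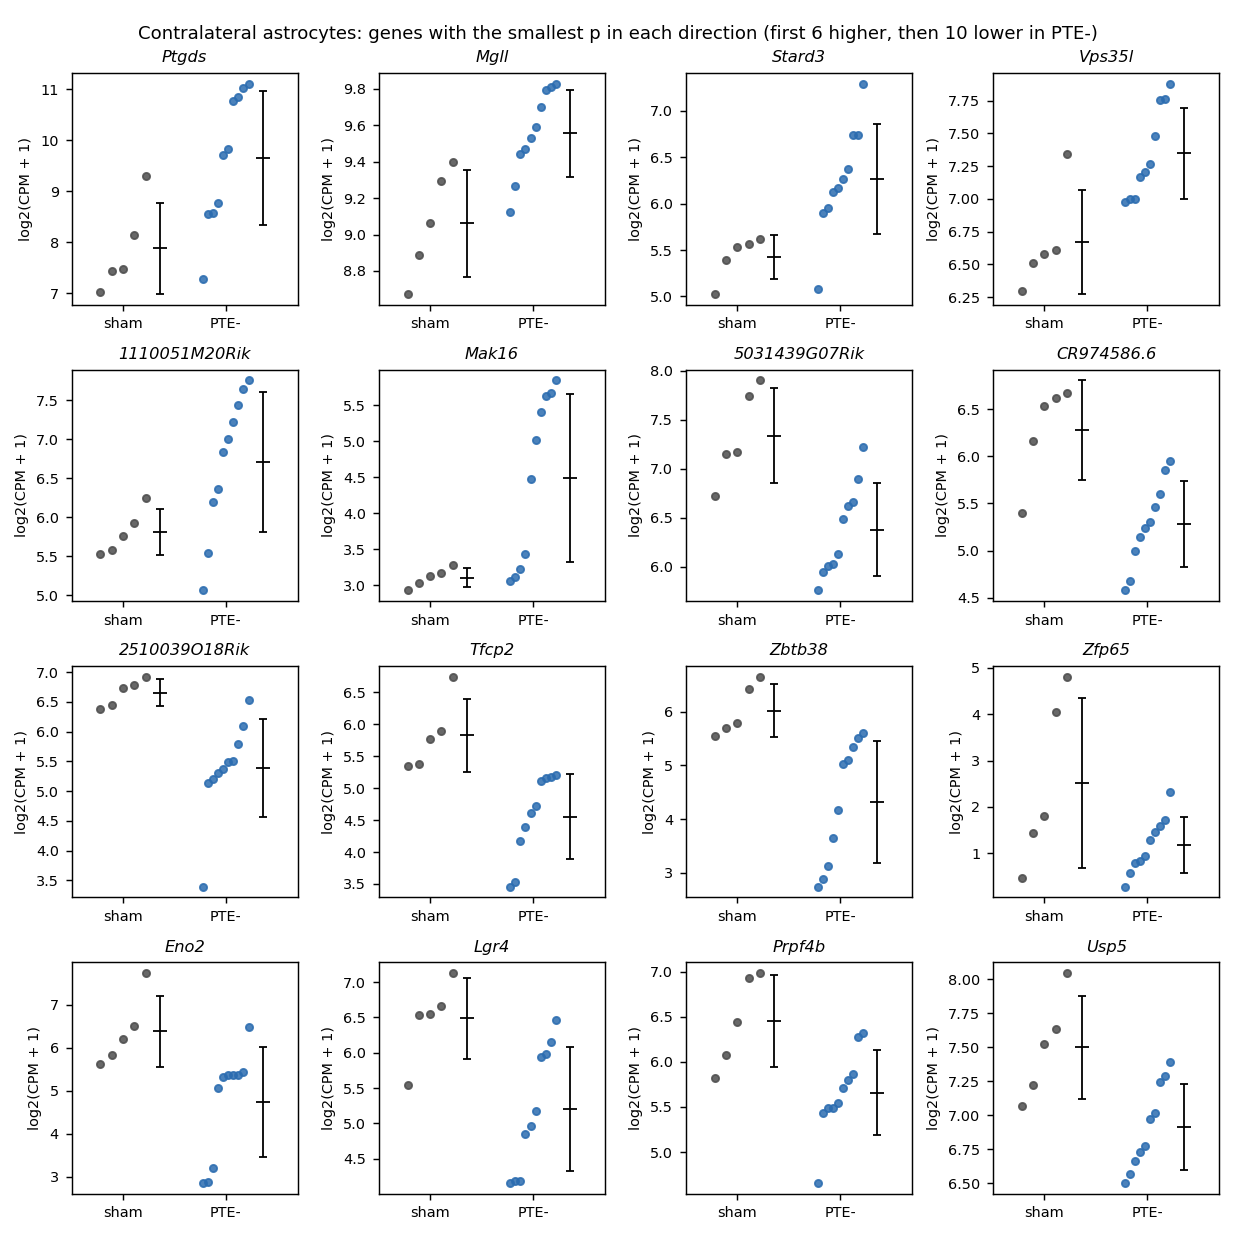
Level of 16 named genes, log2(CPM + 1) on the vertical axes, in sham (grey, n = 5) and PTE- (blue, n = 10) contralateral libraries. Points are libraries and the bar beside them is the mean with its SD. Tfcp2 is the panel in which the groups do not overlap, with PTE- at most 36.1 CPM and sham at least 39.5 CPM.

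The remaining 4 of the 10 higher genes, Gm21738, Gm10800, Gm10719 and Gm10718, belong to 1 repeat. They are predicted genes that share part of their 31-base words with other genes of this repeat. The count table holds 8 more such genes (Gm10801, Gm10715, Gm10717, Gm10720, Gm10721, Gm10722, Gm11168 and Gm17535), which were singled out after their values were seen. From 33.8% (Gm10801) to 88.5% (Gm10720) of the words of these 8 also occur in the first 4. The 12 genes lie on chromosome 9 between 3000922 and 3038316, on chromosome 2 between 98662237 and 98667301, and on chromosome 14 between 19415857 and 19418930. Transcripts of 9 of the 12 matched themselves best at a shift of 234 bases, the repeat length of the mouse major satellite, with identities from 61.7% to 67.6%. That satellite makes up pericentromeric heterochromatin, and it can be transcribed. Reads from such copies cannot be assigned to 1 gene, so that the 12 are described as 1 item.

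The first 240 bases of 3 of the transcripts, from GENCODE M21, show the sharing. Capitals mark 31-base words found in at least 3 other genes of the family, and lower case the bases outside them.
Gm10718: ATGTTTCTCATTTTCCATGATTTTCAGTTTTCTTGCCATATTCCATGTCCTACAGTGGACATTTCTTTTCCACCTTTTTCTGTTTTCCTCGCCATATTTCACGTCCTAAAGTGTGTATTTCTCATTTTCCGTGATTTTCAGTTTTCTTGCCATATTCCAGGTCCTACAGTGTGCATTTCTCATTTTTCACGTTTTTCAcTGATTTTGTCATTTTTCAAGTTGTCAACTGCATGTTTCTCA
Gm10721: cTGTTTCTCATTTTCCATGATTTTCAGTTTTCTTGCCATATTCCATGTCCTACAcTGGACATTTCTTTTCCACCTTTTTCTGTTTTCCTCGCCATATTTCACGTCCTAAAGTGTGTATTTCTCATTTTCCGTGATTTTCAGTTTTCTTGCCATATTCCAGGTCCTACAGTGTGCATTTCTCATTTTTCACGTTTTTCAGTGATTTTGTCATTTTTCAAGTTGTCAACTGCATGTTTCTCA
Gm10800: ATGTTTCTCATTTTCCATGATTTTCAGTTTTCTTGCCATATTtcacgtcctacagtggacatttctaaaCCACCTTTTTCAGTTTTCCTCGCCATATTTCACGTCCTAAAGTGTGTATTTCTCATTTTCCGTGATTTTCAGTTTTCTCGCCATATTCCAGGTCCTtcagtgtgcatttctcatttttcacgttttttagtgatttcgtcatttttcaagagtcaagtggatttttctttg
All but 2 of the 240 bases are shared in Gm10721 and all but 1 in Gm10718, against 57.5% in Gm10800.

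In PTE- the summed level of the 12 genes was 8.07, 51.9 and 2945 CPM, and in sham it was 6.04, 41.2, 20, 1.22 and 2.77 CPM. PTE- libraries a8_14, a9_20 and a8_11 held 2945, 2061 and 1086 CPM, and the other 7 PTE- libraries held at most 114 CPM. In those 3 libraries 13174, 11756 and 15285 genes were detected. Whether the satellite-like reads come from transcripts was not tested. The difference in mean log2(CPM + 1) was 3.49, and it was 1.67 without those 3 libraries. No test is given, since the family was chosen after its values were seen. Gm10800 alone had a log2 fold change of 6.21 ± 2.03 (SE, p = 0.00575, edgeR), with an exact permutation p of 0.0473. PTE+ libraries of the same hemisphere were set against the same sham libraries, and 2 of those 5, a9_18 and a8_17, held 1552 and 993 CPM. On the injured side, the PTE- mice a8_14 and a8_11 held 123 and 142 CPM and sham mouse a8_16 held 193 CPM. For Gm10719 the log2 fold change of PTE- over sham on the injured side was 0.08 (p = 0.947, edgeR).

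**Figure D3:**
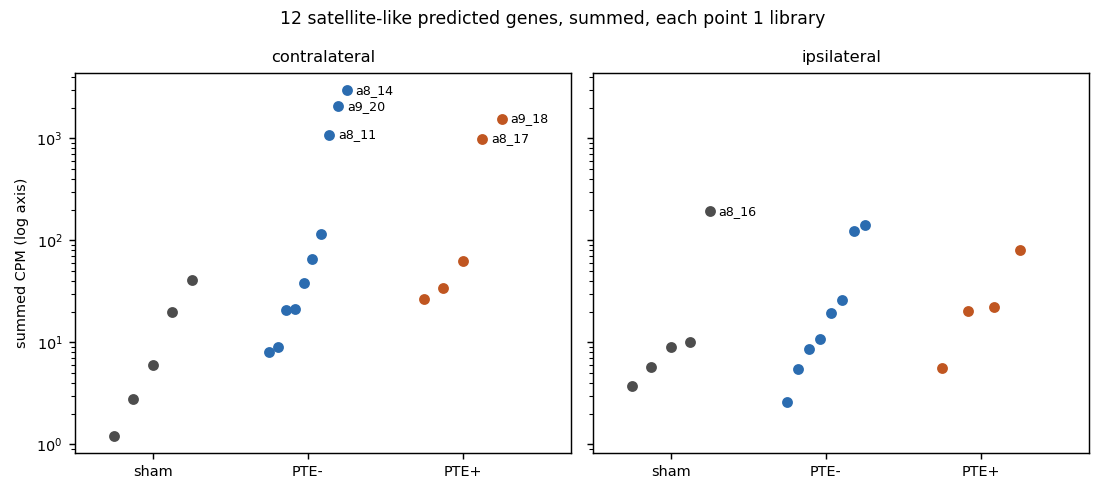
Summed CPM of 12 satellite-like predicted genes (vertical log axis) in sham, PTE- and PTE+ libraries of the contralateral (left) and ipsilateral (right) hippocampus, each point 1 library. Names mark libraries above 150 CPM. Contralateral sham libraries reach 41.2 CPM at most, and the 3 highest PTE- libraries stand at 1086 CPM or more.

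Of the 39 lower genes that met the criteria, Tfcp2 was 1 of 2 whose groups did not overlap. It encodes a transcription factor of the grainyhead family and lies on chromosome 15, from 100498012 to 100552008. PTE- libraries measured 9.97, 24.4 and 36.1 CPM, and sham libraries 39.5, 107, 53.4, 40.8 and 58.3 CPM. The lowest sham library stood above the highest PTE- library. PTE- differed from sham by a log2 fold change of -1.28 ± 0.43 (SE, p = 0.00682, edgeR), the exact permutation p was 0.00133, and the difference was -1.33 in a8 mice and -1.23 in a9 mice.

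The smallest p of the lower genes was that of 5031439G07Rik, on chromosome 15 from 84943936 to 84988551. It measured 53.1, 78.7 and 149 CPM in PTE- and 104, 239, 213, 141 and 143 CPM in sham. PTE- differed from sham by a log2 fold change of -0.96 ± 0.26 (SE, p = 0.00134, edgeR), with an exact permutation p of 0.00333. It differed in the same direction on the injured side, by -0.82 (p = 0.0676, edgeR).

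2510039O18Rik measured 9.48, 42 and 91.3 CPM in PTE- and 106, 120, 86.2, 109 and 82.6 CPM in sham. PTE- library a9_20 alone reached the sham range. PTE- differed from sham by a log2 fold change of -1.13 ± 0.35 (SE, p = 0.00377, edgeR), and the exact permutation p was 0.00433. CR974586.6, on the unplaced scaffold JH584293.1, differed by -1.02 ± 0.31 (SE, p = 0.00329, edgeR), with an exact permutation p of 0.00266.

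Zbtb38, a zinc finger protein that binds methylated DNA, measured 5.67, 24.3 and 47.7 CPM in PTE- and 54.1, 84.9, 100, 51 and 46.1 CPM in sham. PTE- library a8_14 alone exceeded the lowest sham library. This was a log2 fold change of -1.45 ± 0.5 (SE, p = 0.00875, edgeR), and the exact permutation p was 0.00733. On the injured side the log2 fold change was 0.12 (p = 0.79, edgeR).

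Lgr4, a receptor for R-spondins that strengthens Wnt signalling, measured 16.8, 32.6 and 87.7 CPM in PTE- against 92.9, 139, 91.6, 45.8 and 100 CPM in sham. Its log2 fold change was -1.15 ± 0.43 (SE, p = 0.0133, edgeR; exact permutation p = 0.013). In PTE-, 6 libraries were below the lowest sham library, a9_10. Without the 3 libraries with the fewest genes, the value was -0.76 (p = 0.0826, edgeR).

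Eno2, the neuronal enolase, measured 6.23, 39.7 and 88.8 CPM in PTE- and 55.9, 89.7, 48.1, 73.4 and 213 CPM in sham. All PTE- libraries but a8_11 lay below every sham library. This was a log2 fold change of -1.48 ± 0.55 (SE, p = 0.013, edgeR), and the exact permutation p was 0.0203. It rested partly on sham library a9_11, without which it was -0.95 (p = 0.112, edgeR). That library also had the highest summed neuron markers, 1092 TPM.

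Zfp65, a zinc finger gene, was likewise carried by few sham libraries, at 1.7, 2.47, 15.7, 0.39 and 27.2 CPM against 0.21, 1.17 and 4.01 CPM in PTE-. Its fold change was, on the log2 scale, -2.69 ± 0.95 (SE, p = 0.00971, edgeR), and -1.79 without sham library a9_11 (p = 0.0958, edgeR). Prpf4b, a kinase of the spliceosome, differed by -0.81 ± 0.32 (SE, p = 0.0186, edgeR; exact permutation p = 0.00966). Its p reached 0.0661 without sham library a8_16 and 0.0641 without sham library a9_9. Usp5, a deubiquitinase that takes apart free ubiquitin chains, differed by -0.6 ± 0.24 (SE, p = 0.0191, edgeR; exact permutation p = 0.00866), and by -0.44 without sham library a9_11 (p = 0.0983, edgeR).

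Of the 20 genes named by the smallest p-values, 5 did not pass with limma voom and quality weights: Mak16 (p = 0.148), Gm10719 (p = 0.0573), Lgr4 (p = 0.0861), Prpf4b (p = 0.367) and Zfp65 (p = 0.505). Prpf4b also did not pass without the 3 libraries with the fewest genes (p = 0.0917, edgeR). None of the 20 changed direction in the settings computed for single genes (RLE scaling, PTE- and sham alone, DESeq2, voom, both covariates and the left-out libraries).

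No core astrocyte gene passed the test. Of 20 identity genes, 11 had a positive and 9 a negative log2 fold change, between -0.34 and 0.47, with a median of 0.02, and 0 had p under 0.05. Over all genes tested, 55.3% were positive. Slc1a3, the glutamate transporter GLAST, measured 4430, 5770 and 7170 CPM in PTE- and 5210, 8960, 5020, 5460 and 7590 CPM in sham. With edgeR its log2 fold change came to -0.13 ± 0.15 (SE, p = 0.365, edgeR). For the second glutamate transporter, Slc1a2 (GLT-1), the value was -0.02 ± 0.17 (SE, p = 0.899, edgeR), and it turned to 0.27 with voom and quality weights (p = 0.0125, limma). Gja1, the gap junction protein connexin 43, stood at -0.13 ± 0.17 (SE, p = 0.455, edgeR), and Kcnj10, the inward rectifier potassium channel Kir4.1, at -0.07 ± 0.36 (SE, p = 0.852, edgeR). These 4 values are too small for their direction to be read, and each changed sign in some setting.

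Aqp4, the water channel of astrocyte endfeet, measured 757, 906 and 1250 CPM in PTE- and 837, 765, 723, 772 and 803 CPM in sham. Its log2 fold change of 0.24 ± 0.15 did not pass (SE, p = 0.115, edgeR), whereas the exact permutation p was 0.0496. Across 13 genes of potassium and water buffering, 8 were positive, the median was 0.05 and 0 passed. Glul, glutamine synthetase, stood at 0.15 ± 0.16 (SE, p = 0.379, edgeR), or 0.3 with voom (p = 0.0139, limma), and Aldh1l1, a folate enzyme used as an astrocyte marker, at -0.34 ± 0.24 (SE, p = 0.175, edgeR). The secreted lipid carriers Apoe and Clu stood at 0.27 ± 0.18 (SE, p = 0.151, edgeR) and 0.22 ± 0.21 (SE, p = 0.303, edgeR). Cst3, the protease inhibitor cystatin C, stood at 0.24 ± 0.34 (SE, p = 0.489, edgeR), or 0.58 with voom (p = 0.0361, limma).

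Of 18 genes of glutamate and GABA handling, 7 were positive and 11 negative, with a median of -0.08.

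Reactive astrocyte genes did not pass in the edgeR fit of all libraries. Gfap measured 328, 817 and 2090 CPM in PTE- and 709, 829, 470, 871 and 350 CPM in sham. PTE- libraries spread on both sides of the sham range, 4 of them above it and 2 below it. Its log2 fold change was 0.49 ± 0.38 (SE, p = 0.213, edgeR). Vim stood at 0.13 ± 0.43 (SE, p = 0.759, edgeR), and Serpina3n, a secreted protease inhibitor, at 0.29 ± 0.77 (SE, p = 0.709, edgeR). Without the 3 libraries with the fewest genes, Serpina3n stood at 0.88 (p = 0.0289, edgeR), and without any single library between 0.04 and 0.74. Of 11 pan-reactive genes tested, 7 were positive, with a median of 0.29 and 0 passing. On the injured side, 10 of the same 11 were positive, with a median of 1.12. For Vim the PTE- minus sham difference was larger on the injured side by 1.51 in log2(CPM + 1) (exact permutation p = 0.0427), while for Gfap the side difference had an exact permutation p of 0.368. The A1 and A2 reactive lists had medians of 0.29 over 11 genes and 0.09 over 9, with 0 passing in either.

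Lcn2 and Timp1, induced strongly in acute reactive astrocytes, were too low to be tested. Lcn2 was at 0 CPM in 6 of 10 PTE- and 4 of 5 sham libraries, and reached 4.53 CPM in PTE- and 4.71 CPM in sham. Timp1 reached 4.67 CPM in PTE- library a8_11 and was at 0 CPM in every sham library.

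C4b, the complement component that astrocytes raise with age and injury, measured 47.6, 170 and 347 CPM in PTE- and 114, 145, 37.8, 151 and 84.8 CPM in sham. In PTE-, 7 of the 10 libraries exceeded the highest sham library. Of its 31-base words, 48.3% also occur in C4a, so that reads from the shared part cannot be assigned to 1 of the 2 genes by sequence. On the log2 scale the fold change of C4b was 0.77 ± 0.39 (SE, p = 0.0614, edgeR). It passed under 3 leave-one-out fits, with the lowest p of 0.0195 without PTE- library a9_15, with DESeq2 (p = 0.0496), and with voom, where it stood at 0.97 (p = 0.0101, limma). Among 16 complement and acute-phase genes, 13 were positive, with a median of 0.71. Of these C3ar1, a receptor on microglia, alone had p under 0.05 (p = 0.0134, edgeR), from levels above 1 CPM in 3 PTE- libraries. C3 itself stood at 0.23 ± 1.48 (SE, p = 0.878, edgeR).

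Of 29 interferon-response genes, 19 were positive (median 0.31). Ifi27 alone passed, with 55.1, 115 and 281 CPM in PTE- and 75.9, 39.2, 96, 84.3 and 50.7 CPM in sham. Its fold change was, on the log2 scale, 0.93 ± 0.37 (SE, p = 0.0186, edgeR; exact permutation p = 0.0476), and 0.79 without sham library a8_16 (p = 0.0559, edgeR). Cxcl10, an interferon-induced chemokine, pointed the other way, with 0 CPM in 6 of 10 PTE- libraries and 6.86, 10.8, 13.4, 20.3 and 1.69 CPM in sham. With edgeR its log2 fold change came to -2.09 ± 1.73 (SE, p = 0.241, edgeR), whereas the exact permutation p was 0.00999 and the voom value was -3.64 (p = 0.0119, limma). Part of its exon sequence overlaps Art3 on the other strand, and the count is uncertain to that extent. On the injured side Cxcl10 was higher in PTE- than sham, and the difference between the sides was 3.7 in log2(CPM + 1) (exact permutation p = 0.0373).

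Of 21 NF-kB and cytokine genes, 14 were positive (median 0.35), and Il6st alone passed. Il6st encodes gp130, the shared receptor chain of interleukin 6 family cytokines. It measured 29.1, 121 and 354 CPM in PTE- and 78.1, 25.5, 87.2, 103 and 74 CPM in sham. The fold change on the log2 scale was 1.02 ± 0.47 (SE, p = 0.0402, edgeR), the exact permutation p was 0.111, and 7 of the 15 fits without 1 library exceeded 0.05. With voom it stood at 0.29 (p = 0.378, limma), and without the 3 libraries with the fewest genes at 0.67 (p = 0.183, edgeR). The highest p without 1 library, 0.109, was without sham library a8_16, and the others were without PTE- a8_9, a8_14 or a9_20 or sham a8_15, a9_9 or a9_11.

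**Figure D4:**
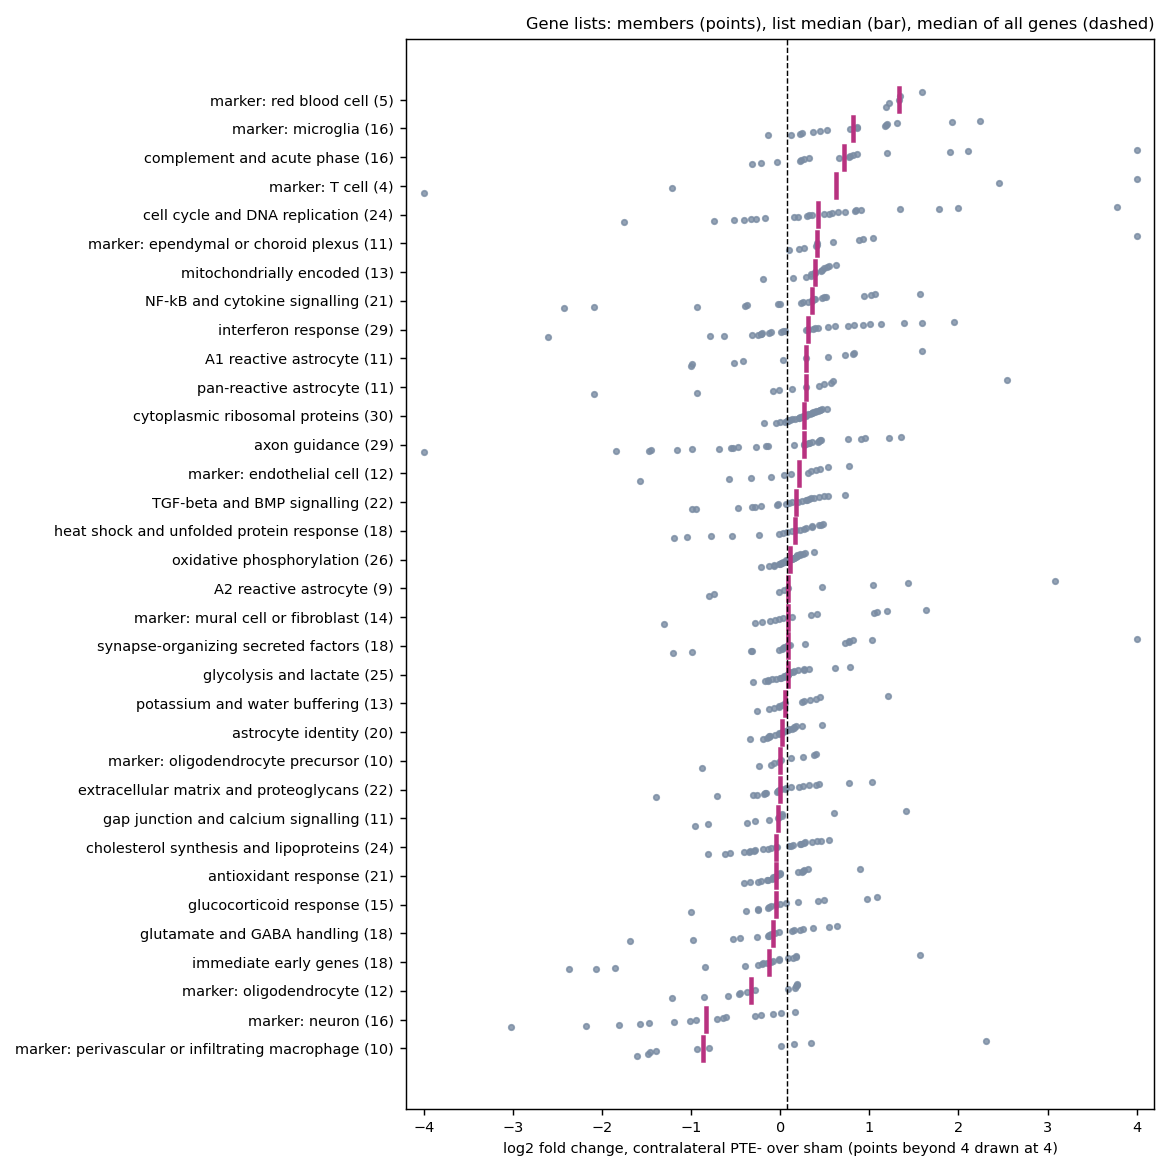
Log2 fold change of contralateral PTE- over sham (horizontal axis) for the tested members (points) of 34 gene lists (rows, number tested in brackets), with the list median as a bar and the median of all genes, 0.07, as a dashed line. Neuron markers have a median of -0.83, microglia markers 0.82 and astrocyte identity genes 0.02.

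The neuron and microglia marker lists had medians farther from 0 than the astrocyte list. So did other lists, such as red blood cell (1.33), perivascular macrophage (-0.87) and T cell markers (0.62). These markers were read in cells captured for astrocytes. How many other cells came through the capture, how many the tissue held and how much RNA each held cannot be told apart. Of 16 neuron markers, 14 were negative, with a median of -0.83. Prox1, a transcription factor of dentate granule cells, alone had p under 0.05, at -3.02 ± 1.31 (SE, p = 0.0312, edgeR; exact permutation p = 0.005). It measured 0, 2.82 and 8.86 CPM in PTE- and 6.07, 91.9, 13.3, 7.35 and 23.5 CPM in sham, and stood at -1.84 without sham library a8_16 (p = 0.202, edgeR), at -1.73 with voom (p = 0.153, limma), and at -1.62 without the 3 libraries with the fewest genes (p = 0.238, edgeR). The neuron markers summed to 193, 291 and 456 TPM in PTE- and to 284, 226, 510, 553 and 1092 TPM in sham. The highest 3 sham libraries, the a9 mice, lay above every PTE- library, and the other 2 lay within the PTE- range. Without sham library a9_11, Snap25 turned from -0.71 to 0.15, Gad1 from -1.19 to 0.01 and Gad2 from -1.81 to 0.13. The lower direction was not seen in the nearest comparisons. On the injured side, 10 of the 16 neuron markers were positive in PTE- over sham, with a median of 0.49. In contralateral PTE+ over the same sham libraries their median was 0.38.

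Several genes that met the criteria and were singled out after their values were seen are known from neurons. No list stands behind this choice, and those given here were all lower in PTE-. Kcnn1, a calcium-activated potassium channel gene chosen in the same way and described further below, was higher. Gabra3, a GABA-A receptor subunit, was at 3.84 CPM or less in PTE- and at 2.52, 21.2, 8.81, 6.93 and 26.4 CPM in sham (p = 0.0153, edgeR). Camk1g, a calcium and calmodulin-dependent kinase, exceeded 1 CPM in 1 PTE- library, a9_13, at 2.18 CPM, and measured 13.5, 0, 11.4, 17 and 17.3 CPM in sham (p = 0.0111, edgeR). Lhx6, a transcription factor of interneurons, had an edgeR p of 0.000248 and an adjusted p of 0.917. DESeq2 placed it among its 26 genes, whereas with voom it did not pass (p = 0.179, limma). It was at 0.102 CPM or less in PTE- but also at 0 CPM in 2 of 5 sham libraries, the others holding 45.2, 4.41 and 8.5 CPM. Neuronal RNA in the libraries was not measured apart from these markers, and its part in these differences was not tested.

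The gene with the smallest p of all was Sema3f, a secreted semaphorin that repels axons (p = 1.91e-05, adjusted p = 0.279, edgeR). It did not meet the TPM criterion. It was at 0.0464 CPM or less in PTE-, and at 2.91, 0, 0, 13.9 and 6.62 CPM in sham, so that the value rests on 3 sham libraries and no fold is given. Tppp, a tubulin-binding protein of oligodendrocytes, and Acot6, an acyl-CoA thioesterase, were 2 further genes whose groups did not overlap, at p = 0.0612 and p = 0.0918 (edgeR). Tppp reached 20.3 CPM in PTE- and was at least 25.8 CPM in sham, and Acot6 reached 12.9 CPM and was at least 13.9 CPM.

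Microglia markers pointed up, with 15 of 16 positive and a median of 0.82, and 0 had p under 0.05. Their sums were 35.4, 605 and 1723 TPM in PTE- and 645, 487, 436, 1078 and 191 TPM in sham. The PTE- libraries spread beyond the sham range at both ends. Cx3cr1, a microglial chemokine receptor, stood at 1.19 ± 1.17 (SE, p = 0.323, edgeR) and turned to -0.37 with voom. Complement genes C1qa, C1qb and C1qc are on this list and on the complement list. Oligodendrocyte markers had a median of -0.33 over 12 genes, precursor markers 0 over 10, endothelial markers 0.21 over 12, and mural or fibroblast markers 0.08 over 14, with 0 passing in each.

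Of 11 ependymal and choroid plexus markers all were positive (median 0.41), and Ttr alone passed. Ttr, transthyretin, is made in bulk by choroid plexus. It measured 0.0572, 225, 592, 0, 0, 91.7, 0, 167, 89.5 and 0 CPM in the PTE- libraries and 0.758 CPM in 1 sham library, a9_10, with the other 4 at 0 CPM. In PTE- the libraries thus fell into 5 at 89.5 CPM or more and 5 at 0.0572 CPM or less. The edgeR p was 0.0114, the voom p 0.0745 and the exact permutation p 0.0852. Its fitted fold is not given, since it depends on 1 sham library. The next marker, Clic6, stood at 1.04 (p = 0.641, edgeR).

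**Figure D5:**
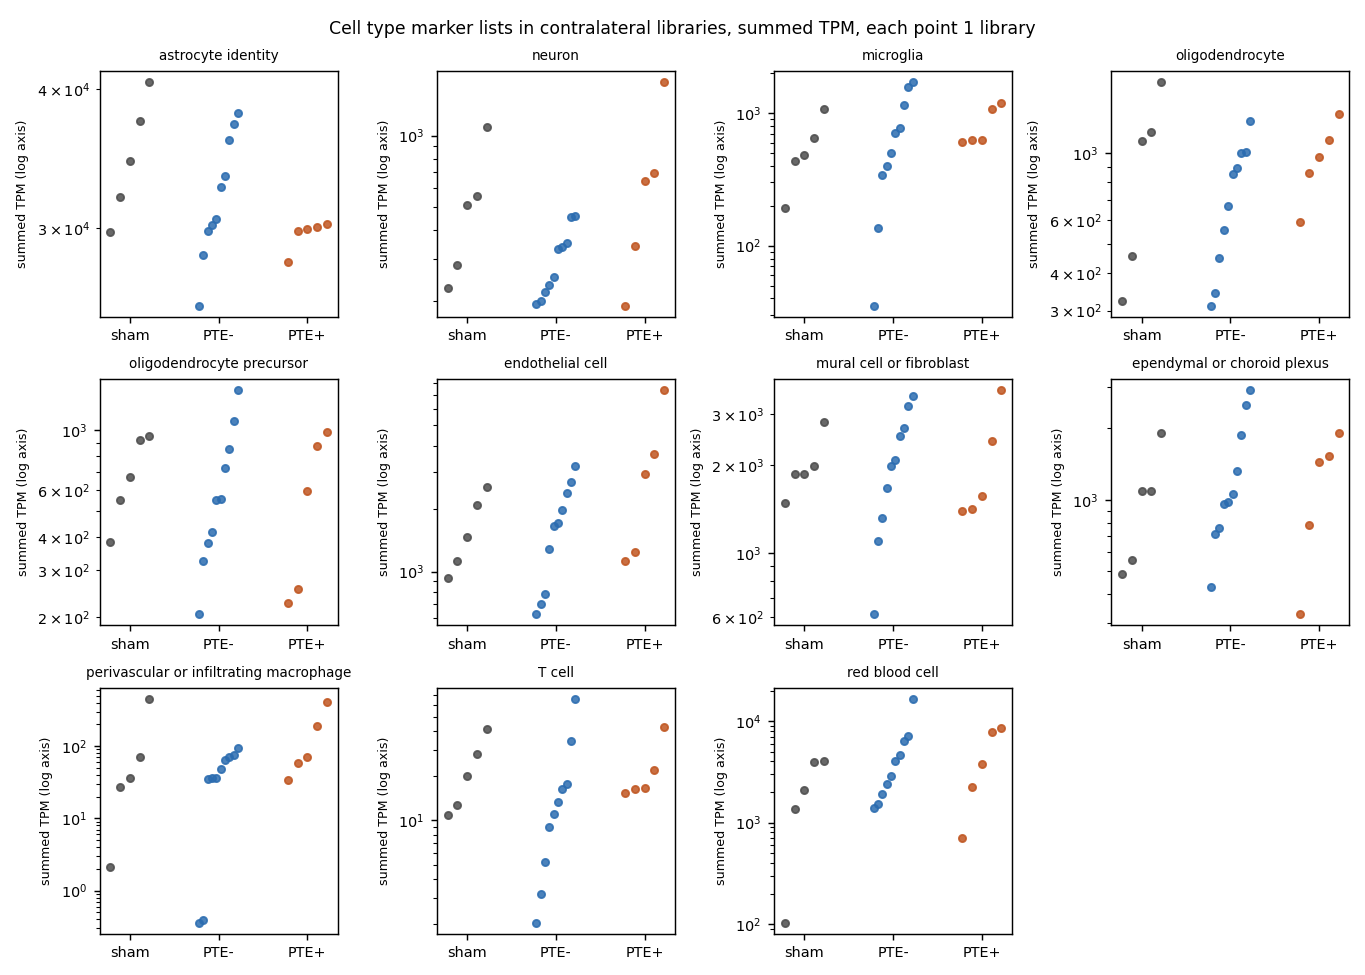
Summed TPM of cell type marker lists (vertical log axes) in contralateral sham, PTE- and PTE+ libraries, each point 1 library. Astrocyte identity genes lie between 25500 and 40630 TPM in PTE- and sham libraries, neuron markers reach 456 TPM in PTE- and 1092 TPM in sham, and microglia markers range from 35.4 to 1723 TPM in PTE-.

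The 110 genes that met the criteria were compared with the injured side of the same study. Of the 71 higher genes, 27 were also higher in ipsilateral PTE- than sham libraries, with a median ipsilateral log2 fold change of -0.06. Of 38 lower genes tested there, 24 were also lower, with a median of -0.12. Of 14387 genes tested in both hemispheres, 51.1% were positive on the injured side. With an ipsilateral p under 0.05 in the same direction (1.58% of genes tested had such a p in either direction), there were 3 higher genes and 0 lower genes. Within the contralateral hemisphere, all 71 higher and all 39 lower genes kept their direction in a8 mice (4 PTE-, 2 sham) and in a9 mice (6 PTE-, 3 sham) taken apart, a description only, since the same libraries chose them. Within a8 mice the exact permutation test cannot go below 0.0667, and within a9 mice it cannot go below 0.0119. PTE+ libraries shared the sham libraries with PTE-: Mgll stood at 0.29, Ptgds at 0.76, Stard3 at 0.66, Tfcp2 at -0.93 and Eno2 at 0.03 in PTE+ over sham, on the log2 scale.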

How the data were processed

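The members and the gene lists were chosen with earlier results of these data known. The authors trimmed reads with Trim Galore 0.6.4 and deposited RSEM 1.2.28 expected counts (whole numbers as deposited, Bowtie2 2.4.1, mm10) and TPM values for each gene. They tested with DESeq2 1.36.0. The annotation release and the strand setting are not given in the sources used here, and symbols and positions were taken from GENCODE M21 (GRCm38), which matched 21933 of 21975 gene IDs.

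Of the 21975 genes, those kept by filterByExpr were tested with edgeR 4.0.16 (TMM, quasi-likelihood F test) in R 4.3.3, with PTE-, sham and PTE+ contralateral libraries (n = 10, 5 and 5) in 1 fit. Depth is 25371887 to 55333329 counts per PTE- or sham library. The common biological coefficient of variation was 1.32. CPM and TPM were given a pseudocount of 1 on the log2 scale. Amplified reads without molecular identifiers are not independent molecules. Sequence words of 31 bases were compared in Python 3.11.15. The test scripts were tested on simulated data. The named genes are the 10 smallest p-values per direction among genes that met the criteria with more than 3 counts in every library, 18 astrocyte genes, and list members that met the criteria. Genes with an adjusted p under 0.05, and criteria genes with at most 3 counts in every library of the lower group, would also have been named, and there were 0 of each. The other named genes were chosen after their values were seen. Alternatives used limma 3.58.1, DESeq2 1.42.0, other filters, covariates and left-out libraries. Results for some items are not reported here.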

Additional observations from a re-analysis of the deposited data

Results flagged for a closer look

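For 41 named genes, the highest and the lowest library of each group were compared with the rest by Dixon's ratio on log2(CPM + 1), 82 groups in all. The critical value is 0.466 for 10 libraries and 0.71 for 5, and chance alone marks about 1 in 20 groups. There were 8 such libraries. PTE- library a9_14 stood low for Prpf4b (4.66), Vim (4.89) and Serpina3n (0), and it was also among the 3 libraries with the fewest genes detected. PTE- library a9_15 stood low for 2510039O18Rik (3.39) and C4b (5.6). PTE- library a8_11 stood high for Apoe (16.2), the main lipoprotein of astrocytes. Sham library a8_16 stood low for Il6st (4.73). Sham library a9_10 stood high for Ttr (0.81), the other sham libraries being at 0.

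For 7 of the 41 named genes, the PTE- minus sham difference gave an exact p under 0.05 between hemispheres, by permutation of the labels over mice with both libraries (8 PTE-, 5 sham). The values are ipsilateral minus contralateral in log2(CPM + 1), with p not adjusted over the 41 genes. Gm21738, Gm10719, Gm10718 and Zbtb38 were named for their small contralateral p, and the side difference contains that contralateral value, so that for these 4 it is a description and no independent test. Satellite-like genes had a smaller difference on the injured side, with values of -2.03 for Gm21738, -2.34 for Gm10719 and -2.18 for Gm10718, and Zbtb38 had a value of 1.89. Of the genes not named by p, Apoe had a value of -0.56 (exact p = 0.0179), with a contralateral log2 fold change of 0.27 and an ipsilateral one of -0.32. Vim had a value of 1.51 (exact p = 0.0427) and Cxcl10 of 3.7 (exact p = 0.0373).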

How the results depend on the processing

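The 110 genes that met the criteria became 242 with DESeq2, 330 with limma voom and quality weights, 463 with limma on log2(TPM + 1), 416 on log2(TPM + 0.1), 193 with a TPM minimum of 1 and 166 without the 3 libraries with the fewest genes. Every other setting stayed within 1.5 times of 110, and leaving out 1 library gave 88 to 147. An adjusted p under 0.05 was reached by 26 genes with DESeq2 and by 0 genes in every other setting, leave-one-out fits included. With voom, Kcnj10 turned to 0.06, Slc1a2 to 0.27, Slc1a3 to 0.06, Gja1 to 0.01 and Cx3cr1 to -0.37. Without the 3 libraries with the fewest genes, Slc1a2 turned to 0.18 and Slc1a3 to 0.02. Over the leave-one-out fits, values that crossed 0 ran from -0.11 to 0.44 for Vim, -0.17 to 0.05 for Kcnj10, -0.11 to 0.16 for Slc1a2, -0.21 to 0.01 for Slc1a3, -0.07 to 0.55 for Cst3, -0.09 to 0.78 for C3, -1.02 to 0.15 for Snap25, -1.48 to 0.01 for Gad1, -2.66 to 0.13 for Gad2 and -0.2 to 0.86 for P2ry12. The cause was not tested.

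No paired analysis was possible because the PTE- and sham mice are different animals, and a mouse name links only the 2 hemispheres of 1 mouse. A p over 0.05 does not show that levels were alike. Depth is given per library, and low genes, with 3 counts or fewer in some libraries (25 of the 110), are less certain.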

Other observations

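Acat1, Acadm and Suclg2, mitochondrial enzymes among the 71 higher genes, were singled out after their values were seen, with no list behind them. Acat1, which handles ketone bodies and isoleucine, measured 112, 225 and 324 CPM in PTE- and 215, 64.4, 140, 150 and 116 CPM in sham, a log2 fold change of 0.73 ± 0.27 (SE, p = 0.0132, edgeR). Acadm, a dehydrogenase of medium-chain fatty acids, differed by 0.73 ± 0.31 (SE, p = 0.0291, edgeR), and Suclg2, a subunit of succinyl-CoA ligase, by 0.65 ± 0.29 (SE, p = 0.0342, edgeR). Without 1 library, p exceeded 0.05 for Acadm in 4 of 15 fits (PTE- a9_15 and sham a8_16, a9_10 and a9_11), up to 0.0923 without sham a9_11. For Suclg2 it did so in 6 of 15 (PTE- a8_11, a8_13 and a9_15 and sham a9_9, a9_10 and a9_11), up to 0.0883 without sham a9_10. Acadm had p = 0.0573 (edgeR) without the 3 libraries with the fewest genes. As lists, oxidative phosphorylation genes had a median of 0.11 over 26 genes and glycolysis genes of 0.08 over 25, beside 0.07 for all genes, and 0 passed in either. Suclg2 shares 20.1% of its 31-base words with a pseudogene, Gm15163.

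Several signalling genes, chosen in the same way, were higher. Kcnn1, a small-conductance calcium-activated potassium channel, measured 9.05, 26.8 and 97.7 CPM in PTE- and 21.1, 0.0211, 6.18, 0.528 and 4.75 CPM in sham, a log2 fold change of 2.53 ± 0.99 (SE, p = 0.0182, edgeR). In PTE-, 6 of 10 libraries lay above every sham library. Rcan2, a regulator of calcineurin, measured 32.5, 46.2 and 113 CPM in PTE- and 59.1, 12.2, 8.92, 13.4 and 16.9 CPM in sham, a log2 fold change of 1.35 ± 0.48 (SE, p = 0.0107, edgeR). Only sham library a8_15 reached the PTE- range. Ednra, the endothelin A receptor, measured 44.6, 81.4 and 230 CPM in PTE- and 47.2, 0, 25, 24.8 and 52.9 CPM in sham (1.73 ± 0.83, SE, p = 0.0492, edgeR). Its p exceeded 0.05 in 9 of the 15 fits without 1 library. Ptpn2, a phosphatase that dampens JAK-STAT signalling, differed by 1.62 ± 0.65 (SE, p = 0.0215, edgeR), and by 1.15 without the 3 libraries with the fewest genes (p = 0.0599, edgeR).

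Red blood cell genes, 5 tested, were all positive with a median of 1.33, and 0 passed. Their sums ran from 1380 to 16540 TPM in PTE- and from 104 to 4041 TPM in sham. Ribosomal protein genes were positive in 28 of 30 with a median of 0.27 and mitochondrially encoded genes in 12 of 13 with a median of 0.39, 0 passing in either list. Immediate early genes were positive in 5 of 18, with a median of -0.13. Perivascular macrophage markers had a median of -0.87 over 10 genes, which was 0.48 with voom and 0.56 without sham library a9_10. T cell markers, 4 tested, had a median of 0.62 that took both signs when single libraries were left out, and 1 of the 4, Cd2, had p under 0.05, lower in PTE-. Cell cycle genes had a median of 0.42 over 24, cholesterol genes -0.05 over 24, antioxidant genes -0.05 over 21, glucocorticoid-response genes -0.05 over 15, heat shock genes 0.16 over 18, gap junction and calcium genes -0.03 over 11, matrix genes 0 over 22 and TGF-beta genes 0.17 over 22. None of those 8 lists had a member with p under 0.05. Axon guidance genes had a median of 0.26 over 29 and synapse-organizing factors 0.08 over 18, each with 1 member under 0.05, Sema3f and Thbs1. Thbs1 was at 0.952 and 0.136 CPM in 2 PTE- libraries and at 0 CPM in the other PTE- and all sham libraries. Its edgeR p of 0.0329 became 0.121 with DESeq2, 0.15 with voom and 0.0628 with the name prefix as a covariate, and it exceeded 0.05 in 5 of 14 fits without 1 library, those without each sham library, up to 0.0552.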
